A study of Mus musculus with 16 samples.

Results

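The response described here is the change in transcript signal of Tsc1-deficient CD4 T cells over 4 h of stimulation through CD3 and CD28. Naive CD4 cells deficient in Tsc1 and stimulated for 4 h on plate-bound antibodies (3 arrays) were set against unstimulated naive Tsc1-deficient CD4 cells (3 arrays), which are 6 of the 16 arrays of the series. The other 10 arrays hold naive wild-type CD4 cells, stimulated in the same way (3 arrays) or unstimulated (3 arrays), and unstimulated CD8 cells of both genotypes. All cells were sorted from mice of the C57BL/6 background, and those for stimulation were cultured in Click medium. The sex and age of the mice, the promoter or Cre line behind the deletion and the time in medium of the unstimulated cells are not given in the sources used here. One sentence of the treatment label refers to HIF1a-deficient mice, whereas the genotype entries and titles of all deficient arrays give Tsc1, and these were followed. Whether the 3 arrays of each group stand for different mice is not stated, and p-values therefore reflect variation among arrays, which may be technical.

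The T cell antigen receptor passes its signal through the CD3 chains to the kinases Lck and Zap70 and the adaptor Lat, from where calcium, Ras and protein kinase C theta lead to the transcription factors NFAT, AP-1 and NF-kB. CD28 adds a second, costimulatory signal that strengthens Il2 expression and survival. Tsc1 stabilises the TSC complex, which turns off the small GTPase Rheb and so restrains mTORC1, the kinase complex that promotes protein, lipid and nucleotide synthesis. In naive T cells this brake is known for its part in keeping the cells small and out of the cycle until antigen is met.

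Signals are log2 values, so a difference of 1 is a 2-fold change, and 1 probe set stands for each of 17097 genes. Signals of different probe sets were not set against each other. A gene was called at an adjusted p under 0.05 in limma, adjusted over all genes, and the value after ± is the standard error unless it is named as an SD. Tsc1 itself had a signal of 6.22, 6.46 and 6.50 in stimulated Tsc1-deficient cells, against 6.42, 6.54 and 6.50 in unstimulated Tsc1-deficient cells. It averaged 7.46 ± 0.09 in stimulated wild-type cells and 7.31 ± 0.07 in unstimulated wild-type cells (SD, n = 3 each), so all 6 deficient arrays lay below all 6 wild-type CD4 arrays. Within the deficient cells, stimulation changed Tsc1 by -0.09 ± 0.10 (adjusted p = 0.544), which did not pass the threshold.

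The 7 measured markers of CD4 T cells, among them Cd4, Cd3e and Zbtb7b, all had group means above the median of the table in both groups. All 7 were called lower after stimulation, 6 of them by at least 2-fold, and their summed signal was 12.45 to 12.74 (log2 of the sum) on the stimulated arrays, against 13.87 to 13.91 on the unstimulated arrays. Some markers of other cells moved as well. The summed signal of 13 monocyte, macrophage and dendritic cell markers was 7.34 to 7.55 on the stimulated arrays, against 8.12 to 8.73 on the unstimulated arrays. Of the 13, 7 were called lower, and 9 had a mean below the median of the table after stimulation, against 6 before it. For 8 natural killer markers the sums were 6.54 to 7.15 on the stimulated arrays, against 8.10 to 8.39 on the unstimulated arrays, and 5 were called lower. For 12 B cell markers they were 8.72 to 9.14 on the stimulated arrays, against 9.15 to 9.77 on the unstimulated arrays, and 5 were called lower. Over all genes, 21.5% were called lower. The sums of 10 neutrophil markers overlapped between the groups, at 8.55 to 10.26 on the stimulated arrays and 8.23 to 10.35 on the unstimulated arrays. In sorted bulk RNA, fewer cells of a type and less RNA per cell cannot be told apart. Control probe sets for the 3 prime and 5 prime ends of the actin transcript differed by 0.71 to 1.19 on the stimulated arrays, against 0.40 to 0.46 on the unstimulated arrays. For Gapdh the difference was 0.96 on stimulated replicate 1 and 0.12 to 0.23 on the other 5 arrays. The part of these markers and of the actin difference in the changes below was not tested. With the Gapdh difference as a covariate, 6236 genes were called for stimulation, against 6041 without it, and 5672 were shared.

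With 1 probe set per gene, more genes fell than rose after stimulation of Tsc1-deficient CD4 cells. Of 17097 genes, 6041 were called (35.3%), 2357 of them higher after stimulation (13.8%) and 3684 lower (21.5%). With every probe set tested on its own, including those that name no gene, the order turned, with 6894 called higher and 6789 lower. At least 2-fold changes were fewer, with 569 genes higher (3.33%) and 1307 lower (7.64%). Falls were also the more frequent at 2-fold over all probe sets, at 2326 against 1884 rises. Changes of at least 4-fold numbered 102 higher and 207 lower genes, and of at least 8-fold 23 and 35. The 3 stimulated arrays lay wholly above or wholly below the 3 unstimulated arrays for 5844 of the 6041 called genes. The median change over all genes was -0.02 after RMA, which sets the arrays to a common distribution, so a shift shared by all genes could not be seen.

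**Figure D1:**
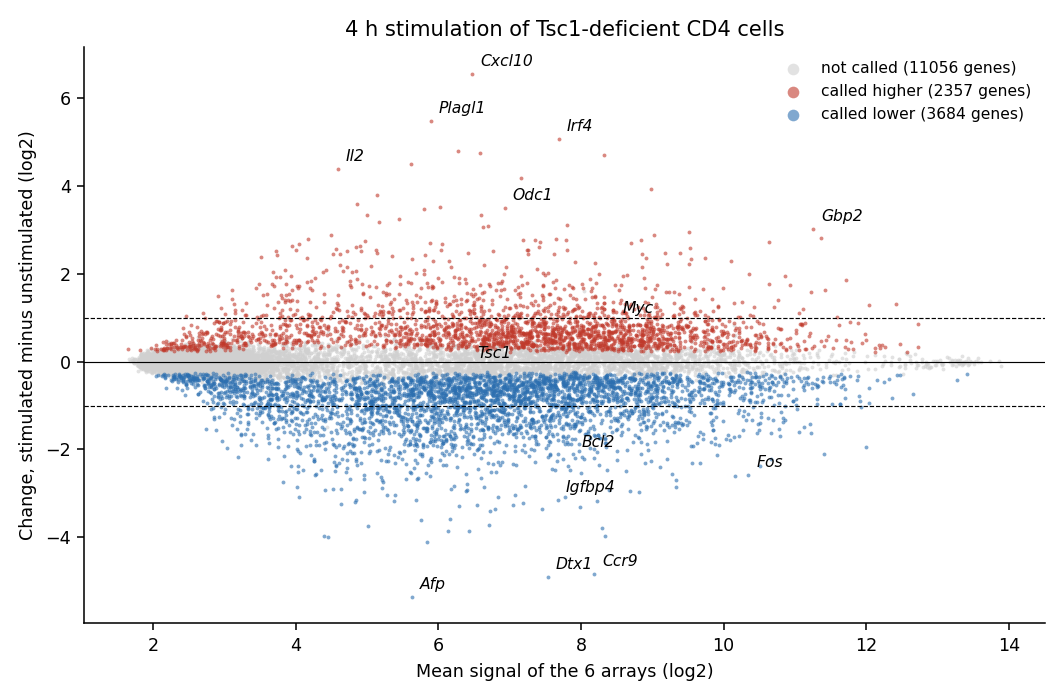
Change after stimulation (vertical axis, log2) against the mean signal of the 6 Tsc1-deficient CD4 arrays (horizontal axis, log2), 1 point per gene. Red points are the 2357 genes called higher, blue points the 3684 called lower, grey points the genes that were not called, and dashed lines mark a 2-fold change. Cxcl10 stands highest, at 6.57, and Afp lowest, at -5.37.

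The highest rise was that of Cxcl10, a chemokine that draws activated T cells. Its signal was 9.03, 9.71 and 10.54 on the stimulated arrays, against 3.08, 3.46 and 3.03 on the unstimulated arrays. Its change was 6.57 ± 0.37 (adjusted p = 5.31e-10), about 94.9-fold, and the lowest stimulated array stood more than 5 log2 units above the highest unstimulated one. Its unstimulated mean, 3.19, lay below the median of the table, 3.36, so the fold is less certain than the rise. Plagl1, a zinc-finger transcription factor, was next, at 8.35, 9.30 and 8.27 on the stimulated arrays, against 3.03, 3.12 and 3.32 on the unstimulated arrays. The gap between the groups was again wider than either group's spread, and the change was 5.48 ± 0.21 (adjusted p = 6.65e-12). The unstimulated mean of Plagl1, 3.16, also lay below that median. Its dimmer probe set, below the median in both groups, changed by 0.18. Among genes of other kinds, Zfp948, a zinc-finger protein, had a change of 4.50 ± 0.25, and Ramp3, an accessory protein of calcitonin-family receptors, one of 4.20 ± 0.24. Odc1, the rate-limiting enzyme of polyamine synthesis, had 9.31, 8.66 and 8.08 on the stimulated arrays, against 5.02, 5.25 and 5.25 on the unstimulated arrays. The groups were well apart, and the change was 3.51 ± 0.23 (adjusted p = 2.93e-09). Gadd45b, a stress-induced regulator of p38 signalling, changed by 3.93 ± 0.26, the scaffold protein gene Mpp7 by 3.51 ± 0.21 and the lectin-like receptor gene Klrb1f by 3.60 ± 0.25.

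The deepest falls were of genes of varied kinds. Ccr9, the receptor for the gut chemokine Ccl25, had signals of 5.27, 6.32 and 5.69 on the stimulated arrays, against 10.63, 10.67 and 10.52 on the unstimulated arrays. No array of one group reached the other, and the change was -4.85 ± 0.19 (adjusted p = 9.95e-12). Dtx1, a ubiquitin ligase of the Notch pathway, had 5.43, 4.81 and 5.001 on the stimulated arrays, against 10.20, 9.93 and 9.85 on the unstimulated arrays. Its change was -4.91 ± 0.13 (adjusted p = 2.28e-13). Afp, the fetal serum protein alpha-fetoprotein, had the largest drop by its brightest probe set, at 3.16, 2.89 and 2.79 on the stimulated arrays, against 8.37, 8.37 and 8.21 on the unstimulated arrays, a change of -5.37 ± 0.16 (adjusted p = 3.37e-13). Slc40a1, the iron exporter ferroportin, changed by -3.99 ± 0.34, and Hsd11b1, which regenerates active glucocorticoid, by -3.98 ± 0.11. Sit1, an adaptor that restrains antigen receptor signalling, changed by -3.86 ± 0.14, the cytoskeletal GTPase gene Septin9 by -3.80 ± 0.12, Ampd3, an AMP deaminase, by -3.74 ± 0.19, and Flt3l, the ligand of the receptor Flt3, by -3.61 ± 0.19. Among the other falls of this size were Pdlim4 (-4.11), Slc16a5 (-3.98), Pglyrp2 (-3.86), Acyp1 (-3.72), Tmem108 (-3.59) and Ccdc69 (-3.40), each with arrays that did not overlap. After stimulation, Afp (2.95), Slc40a1 (2.46), Ampd3 (3.15) and Slc16a5 (2.41) averaged below the median of the table.

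Transcription factors of early activation had the highest share of rises among the 28 pathway lists. Of 36 measured members, 23 were called higher (63.9%, against 13.8% of all genes) and 7 lower (19.4%, near the 21.5% of all genes). Of the rises, 19 were at least 2-fold. The median change was 1.16, and in wild-type cells it was 1.04. This list and the others below were chosen with earlier results of these data known. Their shares and ranking therefore describe the chosen genes and were not tested. Irf4, which sets how far T cells expand and differentiate, had signals of 10.32, 10.03 and 10.33 on the stimulated arrays, against 4.87, 5.14 and 5.41 on the unstimulated arrays. Nr4a2, an orphan nuclear receptor induced by antigen receptor signals, had 8.96, 9.10 and 7.99 on the stimulated arrays, against 3.15, 4.21 and 4.27 on the unstimulated arrays. In both genes the lowest stimulated array was at least 3 log2 units above the highest unstimulated one, and the changes were 5.09 ± 0.14 (adjusted p = 2.28e-13) for Irf4 and 4.81 ± 0.44 (adjusted p = 1.44e-07) for Nr4a2. Fosl2, an AP-1 subunit, changed by 4.75 ± 0.19 (adjusted p = 1.38e-11). The related receptor genes Nr4a3 and Nr4a1 changed by 4.71 ± 0.21 and 2.23 ± 0.43. Egr2, which is induced with the anergy programme, changed by 2.55 ± 0.17, against 1.16 ± 0.14 for Egr1. The NF-kB genes rose together, with changes of 2.45 ± 0.20 for Nfkb2, 2.28 ± 0.13 for Relb and 1.56 ± 0.21 for Rel. Tbx21, which encodes the T helper 1 factor T-bet, changed by 2.56 ± 0.24 (adjusted p = 2.15e-07), and Irf8 by 3.09 ± 0.29. Myc, which drives growth of activated T cells, changed by 0.94 ± 0.17 (adjusted p = 0.000194).

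Other members of the same list fell. Fos, the founding AP-1 gene and one of the most short-lived transcripts of the response, had 8.48, 10.09 and 8.60 on the stimulated arrays, against 10.84, 11.88 and 12.19 on the unstimulated arrays. The stimulated arrays were all lower, and the change was -2.58 ± 0.44 (adjusted p = 0.000135). Junb changed by -1.56 ± 0.31 (adjusted p = 0.00063), Jund by -0.58 ± 0.16 and Gata3, the T helper 2 factor, by -0.76 ± 0.18. Nfatc1, which encodes a calcium-regulated factor, changed by -0.64 ± 0.11. Jun was called lower by its brightest probe set, with -0.97, but its probe sets disagreed, and with all of them averaged its change was -0.20 (adjusted p = 0.675). The call of Jun was also lost without stimulated replicate 1 or 3 or unstimulated replicate 2 or 3 (adjusted p = 0.0521 to 0.0760). Among the 6 members that were not called were Fosb (-0.83), Zbtb32 (-0.06), Egr3 (-0.04), Nfatc2 (0.04) and Crem (0.06), of which Zbtb32 and Crem read below the median of the table in both groups. The AP-1 family was therefore split, with Fosl2 and the related small Maf gene Maff (2.28 ± 0.37) higher and Fos, Junb and Jund lower at 4 h.

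More cytokine genes rose than fell. Of 25 measured, 14 were called higher (56%, against 13.8% of all genes) and 3 lower (12%, against 21.5%), with 8 rises and 3 falls of at least 2-fold, and the median change was 0.54 (0.24 in wild-type cells). Il2, the growth factor of activated T cells, had signals of 6.71, 6.87 and 6.82 on the stimulated arrays, against 2.47, 2.47 and 2.24 on the unstimulated arrays. All stimulated arrays were more than 4 log2 units above the unstimulated ones, which lay below the median of the table, and the change was 4.40 ± 0.21 (adjusted p = 7.69e-11). Ifng, the defining cytokine of T helper 1 cells, had 6.49, 6.35 and 7.14 on the stimulated arrays, against 3.06, 3.18 and 3.74 on the unstimulated arrays. The groups did not overlap, and the change was 3.34 ± 0.23 (adjusted p = 4.7e-09). Lif, a cytokine of the Il6 family, changed by 2.89 ± 0.20, Tnfsf11, which encodes RANK ligand, by 2.45 ± 0.22, and Il4, the T helper 2 cytokine, by 2.39 ± 0.18 (adjusted p = 1.78e-08). Csf2 changed by 1.34 ± 0.17, Il3 by 1.11 ± 0.14, Il5 by 0.91 ± 0.12 and Tnf by 0.81 ± 0.14. The unstimulated means of Ifng (3.32), Lif (3.05), Il4 (2.32) and Csf2 (2.64) lay below the median of the table. Il3 averaged 3.25 in stimulated and 2.14 in unstimulated cells, both below the median of the table, 3.36. Il5 averaged 3.38 in stimulated cells, barely above that median, and 2.47 in unstimulated cells. Il16 fell by 1.48 on the log2 scale, Ltb, which encodes lymphotoxin beta, by 1.42 and Tnfsf10, which encodes the death ligand TRAIL, by 1.12. Among the 8 cytokines not called, Il17a (0.09), Il10 (0.11), Il6 (0.24) and Il9 (0.03) stayed below the median of the table in both groups.

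**Figure D2:**
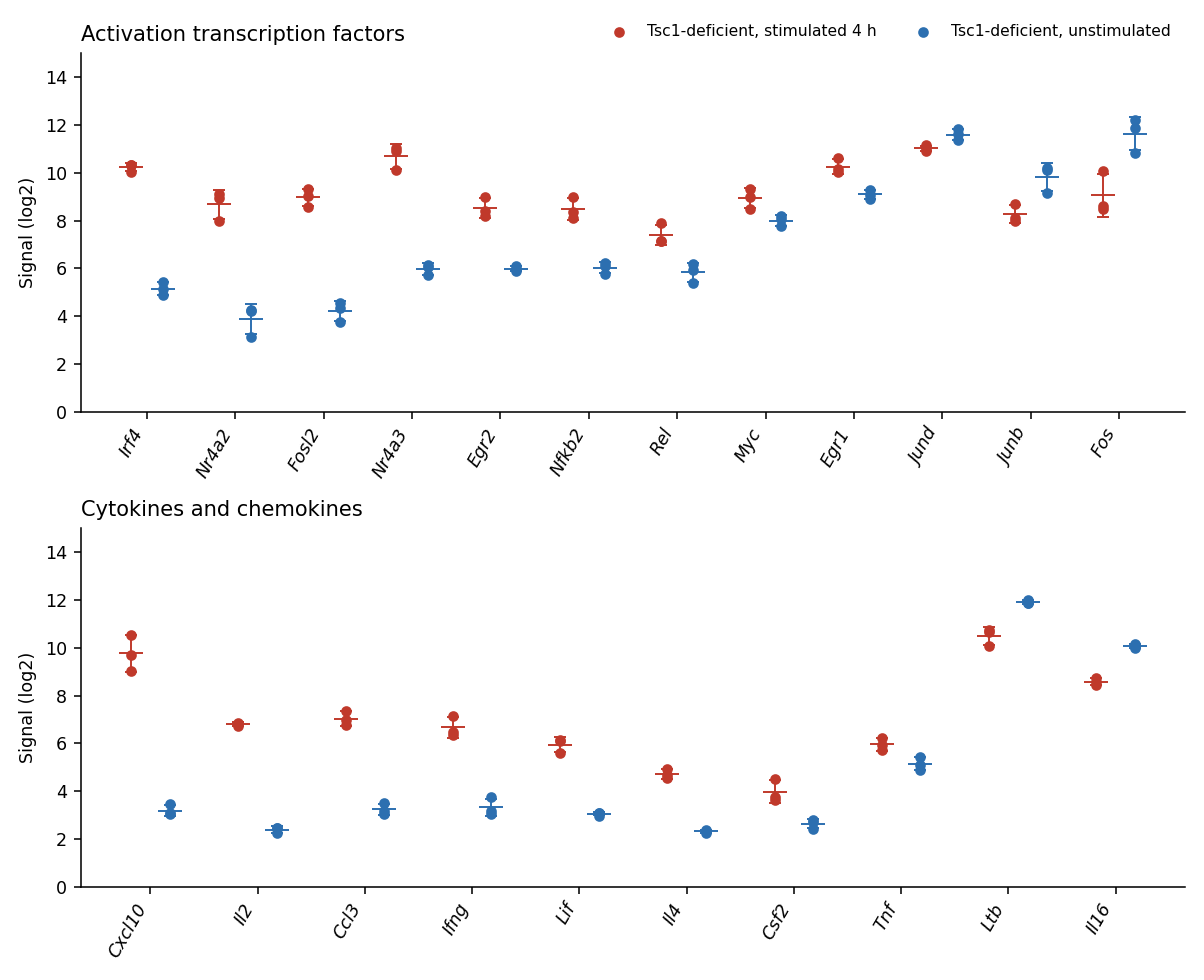
Signal (log2) of 12 activation transcription factors and 10 cytokine and chemokine genes on each Tsc1-deficient CD4 array, red for stimulated and blue for unstimulated cells. Points are arrays, and bars are the mean and SD of 3 arrays. The red points of Irf4, Nr4a2, Fosl2, Cxcl10, Il2 and Ifng lie far above the blue ones, and those of Fos, Junb, Ltb and Il16 lie below.

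The regions before the start sites of Irf4, Nr4a2, Il2 and Ifng are shown because these genes had the 2 highest rises of the transcription factor list and of the cytokine list. Sequences are the 250 bases before the start in RefSeq on GRCm38.p6, 5 prime to 3 prime on the strand of the gene. Capitals mark matches on either strand to the NFAT core GGAAA, the TATA box TATAAA, the AP-1 sites TGACTCA and TGAGTCA, the cyclic AMP response element TGACGTCA, the E-box CACGTG and the CArG box of serum response factor.
Irf4, chr13:30748983-30749232, plus strand: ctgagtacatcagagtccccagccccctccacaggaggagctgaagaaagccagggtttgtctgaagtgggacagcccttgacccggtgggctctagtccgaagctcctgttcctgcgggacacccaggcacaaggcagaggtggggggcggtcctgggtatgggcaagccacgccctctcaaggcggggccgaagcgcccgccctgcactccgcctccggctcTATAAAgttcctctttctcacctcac
Nr4a2, chr2:57124004-57124253, minus strand: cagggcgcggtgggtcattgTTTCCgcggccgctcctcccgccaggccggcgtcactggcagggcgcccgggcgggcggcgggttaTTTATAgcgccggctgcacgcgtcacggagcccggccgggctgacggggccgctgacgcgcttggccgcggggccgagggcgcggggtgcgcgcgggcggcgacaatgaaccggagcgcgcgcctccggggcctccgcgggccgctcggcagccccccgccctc
Il2, chr3:37125955-37126204, minus strand: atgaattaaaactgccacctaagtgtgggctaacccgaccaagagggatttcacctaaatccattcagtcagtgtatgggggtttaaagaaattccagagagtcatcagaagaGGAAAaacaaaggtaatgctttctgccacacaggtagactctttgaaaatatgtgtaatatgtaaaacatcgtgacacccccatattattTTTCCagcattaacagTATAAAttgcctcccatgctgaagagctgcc
Ifng, chr10:118440796-118441045, plus strand: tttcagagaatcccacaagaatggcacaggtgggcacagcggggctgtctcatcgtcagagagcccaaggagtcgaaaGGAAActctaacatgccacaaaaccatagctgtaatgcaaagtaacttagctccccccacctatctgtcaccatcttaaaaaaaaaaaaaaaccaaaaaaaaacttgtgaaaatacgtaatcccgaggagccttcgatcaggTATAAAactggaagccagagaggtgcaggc
Matches to the TATA box began 26 bases before the start in Irf4, 31 in Il2 and 30 in Ifng, and lay farther off, at 164 bases and on the other strand, in Nr4a2. The NFAT core was found at 137 and 47 bases before the start of Il2, at 172 before Ifng and at 230 before Nr4a2, and not in these letters of Irf4. Shares of regions with each motif were compared over the genes with a listed start, with no test. The NFAT core was in 54.0% of 448 regions of genes at least 2-fold higher, 57.6% of 1057 of genes at least 2-fold lower, and 54.5% of all 13514. AP-1 sites were in 2.90% of the higher, 2.84% of the lower and 3.85% of all regions, and the TATA box in 7.37%, 5.68% and 9.26%. The cyclic AMP response element was in 2.46%, 1.80% and 2.30% of the same sets, the E-box in 9.60%, 8.70% and 7.60%, and the CArG box in 1.56%, 1.32% and 1.28%. A match is a description of letters and not a bound site.

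Chemokine ligands rose and Ccr9 fell in the chemokine list, of which 21 genes were measured, 7 called higher (33.3%, against 13.8% of all genes), 2 lower (9.52%, against 21.5%) and 12 not called. Ccl3, an inflammatory chemokine, had 6.75, 6.99 and 7.37 on the stimulated arrays, against 3.19, 3.50 and 3.03 on the unstimulated arrays. Its stimulated arrays were all above its unstimulated ones, and the change was 3.80 ± 0.20 (adjusted p = 2.28e-10). Its unstimulated mean, 3.24, lay below the median of the table. Ccl4, a close relative, changed by 3.49 ± 0.23, Xcl1, made by activated lymphocytes, by 3.18 ± 0.21, Ccl1 by 1.51 ± 0.18, and Cxcl9 by 1.40 ± 0.36. Among receptors not called were Cxcr5 (0.22) and Ccr4 (-0.07), the second of which read below the median of the table in both groups.

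Cytokine receptor chains fell more often than they rose. Of 25 measured, 7 were called higher (28%, against 13.8% of all genes) and 13 lower (52%, against 21.5%). The median change was -0.44. Il2ra, the inducible alpha chain that gives the Il2 receptor its high affinity, had 5.15, 5.03 and 5.83 on the stimulated arrays, against 2.70, 2.995 and 3.22 on the unstimulated arrays. The groups did not overlap, and the change was 2.37 ± 0.20 (adjusted p = 5.3e-08). Ifngr1, the ligand-binding chain of the interferon gamma receptor, changed by 1.67 ± 0.09. Chains for other cytokines fell, with -1.86 ± 0.11 for Il27ra, -1.27 ± 0.14 for Il6ra, -0.997 ± 0.09 for Il6st, -0.99 ± 0.18 for Il21r and -1.18 ± 0.22 for Il12rb1. Among transforming growth factor beta receptors, Tgfbr1 changed by 1.22 ± 0.14, Tgfbr2 by -0.83 ± 0.12 and Tgfbr3 by -1.75 ± 0.17.

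Surface molecules of activated T cells were higher for 13 (43.3%, against 13.8% of all genes) and lower for 6 (20%, near the 21.5% of all genes) of 30 measured genes. Cd69, the early activation antigen that holds cells in lymphoid tissue, had 11.34, 11.41 and 11.30 on the stimulated arrays, against 8.99, 9.48 and 9.57 on the unstimulated arrays. No array overlapped, and the change was 2.005 ± 0.20 (adjusted p = 4.75e-07). Cd274, which encodes the inhibitory ligand PD-L1, changed by 2.78 ± 0.25, Cd83 by 2.55 ± 0.12 and the inhibitory receptor genes Pdcd1 and Ctla4 by 1.71 ± 0.24 and 1.29 ± 0.33. The costimulatory receptor genes Tnfrsf4 and Icos changed by 1.64 ± 0.14 and 1.58 ± 0.12. Tfrc, the transferrin receptor, and Slc3a2, the heavy chain of amino acid transporters, rose by less, at 0.58 ± 0.11 and 0.76 ± 0.11. Cd96 (-2.20 ± 0.12), Slamf6 (-2.15 ± 0.10), Cd27 (-1.63 ± 0.11) and Cd5 (-1.34 ± 0.12), which are carried by resting T cells, fell. Cd40lg (-0.11), the ligand of CD40, and Cd44 (-0.24), an adhesion receptor gene, were not called.

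Genes listed as feedback inhibitors of T cell signalling rose in 21 of 37 cases (56.8%, against 13.8% of all genes). They fell in 7 (18.9%, near the 21.5% of all genes). Socs1, which blocks Janus kinases, had 7.23, 7.24 and 7.71 on the stimulated arrays, against 4.57, 4.91 and 4.67 on the unstimulated arrays, groups that did not overlap, and a change of 2.68 ± 0.20 (adjusted p = 9.07e-09). Cish, another cytokine signal inhibitor, changed by 2.16 ± 0.12, and the survival kinase gene Pim1 by 2.55 ± 0.25. Spry1, a Ras pathway inhibitor, changed by 2.03 ± 0.24, and Cblb, a ubiquitin ligase that raises the threshold for activation, by 1.31 ± 0.18. The NF-kB inhibitors Nfkbia, Nfkbid and Nfkbib changed by 1.59 ± 0.17, 1.41 ± 0.19 and 1.11 ± 0.10. Of the MAP kinase phosphatase genes, Dusp10 rose, with 0.69 ± 0.18, and Dusp2 fell, with -0.85 ± 0.14. Sla2 (-1.65 ± 0.12), Dgkz (-1.14 ± 0.11) and Nab2 (-0.86 ± 0.18), which limit receptor, diacylglycerol and Egr activity, fell.

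The genes of the antigen receptor signalling machinery had the highest share of falls among the 28 pathway lists. Of 29 measured, 22 were called lower (75.9%, against 21.5% of all genes), 15 of them by at least 2-fold, and the median change was -1.06 (-0.77 in wild-type cells). Gene by gene, the median difference between the genotypes was -0.16. As said above, the lists were chosen with earlier results of these data known, so the ranking is a description. Cd3g, a signalling chain of the receptor, had signals of 9.56, 9.49 and 9.60 on the stimulated arrays, against 11.73, 11.75 and 11.82 on the unstimulated arrays. The spread within each group was small beside the gap, and the change was -2.22 ± 0.08 (adjusted p = 6.65e-12). Cd3e changed by -1.19 ± 0.13 (adjusted p = 1.45e-06), Cd3d by -0.95 ± 0.09, the coreceptor gene Cd4 by -1.41 ± 0.21 and the adhesion receptor gene Cd2 by -1.27 ± 0.13. Lat, the adaptor on which signalling proteins gather, had 9.65, 10.14 and 10.28 on the stimulated arrays, against 11.35, 11.34 and 11.40 on the unstimulated arrays, and Prkcq, which encodes protein kinase C theta, had 9.18, 8.85 and 9.43 on the stimulated arrays, against 10.87, 10.91 and 10.96 on the unstimulated arrays. Both groups were apart in each, with changes of -1.34 ± 0.13 (adjusted p = 2.35e-07) and -1.76 ± 0.12 (adjusted p = 6.26e-09). Ptpn6, the inhibitory phosphatase SHP-1, changed by -2.25 ± 0.13 (adjusted p = 7.26e-10), Themis by -1.74 ± 0.10, Rasgrp1, which couples diacylglycerol to Ras, by -1.32 ± 0.13, Zap70 by -0.67 ± 0.10 and Vav1 by -0.70 ± 0.14. The 2 members called higher were Bcl10 (1.01 ± 0.15), which links protein kinase C theta to NF-kB, and the phosphatase gene Ptpn22 (0.32 ± 0.12). The call of Ptpn22 was lost without any single one of 5 of the 6 arrays, stimulated replicate 3 being the exception (adjusted p = 0.0853 to 0.243). Cd247 (0.16), the zeta chain, Ptprc (0.00), Fyn (-0.08), Plcg1 (0.25) and Nck1 (-0.10) were not called. Without stimulated replicate 1, Cd247 was called higher, at 0.26 (adjusted p = 0.0475). Its dimmer probe sets went both ways over all 6 arrays, with -0.19, -1.11 and 0.26.

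**Figure D3:**
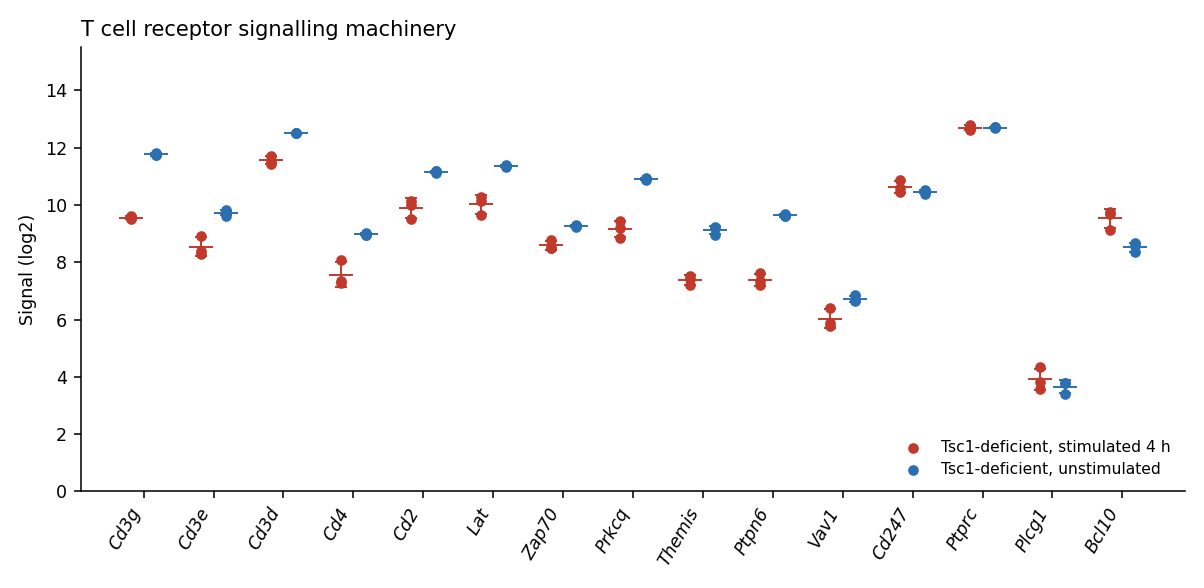
Signal (log2) of 15 genes of the antigen receptor signalling machinery on each Tsc1-deficient CD4 array, red for stimulated and blue for unstimulated cells, with the mean and SD of 3 arrays. From Cd3g to Vav1 the red points lie below the blue ones, Cd247, Ptprc and Plcg1 overlap or nearly so, and Bcl10 is higher after stimulation.

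Calcium signalling genes were mixed. Of 23 measured, 5 were called higher (21.7%, against 13.8% of all genes) and 11 lower (47.8%, against 21.5%). Orai1, the pore of the store-operated calcium channel, changed by 1.68 ± 0.17 (adjusted p = 3.72e-07), while Orai2 and Orai3 changed by -1.41 ± 0.12 and -0.81 ± 0.10. Atp2a3, a calcium pump of the endoplasmic reticulum, changed by -1.84 ± 0.11, and Ppp3cc, a calcineurin subunit, by -1.39 ± 0.12.

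Genes of naive quiescence and homing did not move as one. Of 33 measured, 8 were called higher (24.2%, against 13.8% of all genes) and 15 lower (45.5%, against 21.5%). The median was -0.37 (-0.13 in wild-type cells). Gene by gene, the median difference between the genotypes was -0.07, and the test of the difference called 1 member higher and 1 lower. Igfbp4, a marker of naive T cells, had 6.73, 5.83 and 5.76 on the stimulated arrays, against 9.43, 9.06 and 9.28 on the unstimulated arrays. Its groups did not overlap, and the change was -3.15 ± 0.20 (adjusted p = 1.73e-09). The integrin genes Itgb7 and Itga4, whose products pair for gut homing, changed by -2.56 ± 0.14 and -1.45 ± 0.10. S1pr1, the receptor that lets T cells leave lymph nodes, changed by -1.02 ± 0.14, Lef1, a factor of naive cells, by -1.01 ± 0.12, and Id3 and Id2, inhibitors of E proteins, by -2.18 ± 0.25 and -1.56 ± 0.18. Ikzf1, which encodes Ikaros, changed by -1.28 ± 0.10. Against these, Zeb1, a repressor of Il2, changed by 2.47 ± 0.09 (adjusted p = 6.65e-12), Gfi1 by 1.15 ± 0.17, Bach2 by 0.73 ± 0.13 and Txnip by 0.85 ± 0.15. Tob1 (0.17) and Cdkn1b (-0.08), factors linked with the resting state, were not called. The probe set of Foxo1 (0.10) read below the median of the table in both groups. Among 8 GIMAP GTPases, which support lymphocyte survival, 4 fell (50%, against 21.5% of all genes) and 2 rose (25%, against 13.8%). The called changes ran from -1.50 ± 0.10 for Gimap7 to 0.53 ± 0.11 for Gimap5.

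The mTORC1 control list changed in both directions. Of 39 measured, 12 were called higher (30.8%, against 13.8% of all genes) and 13 lower (33.3%, against 21.5%), and the median was -0.09 (0.03 in wild-type cells). Ddit4, an inhibitor that acts through the TSC complex, had 7.22, 7.58 and 6.59 on the stimulated arrays, against 9.86, 9.45 and 9.47 on the unstimulated arrays. The stimulated arrays were all lower, and the change was -2.46 ± 0.24 (adjusted p = 2.97e-07). The Ragulator genes Lamtor4, Lamtor2 and Lamtor1, whose products anchor Rag GTPases on the lysosome, changed by -1.42 ± 0.10, -1.09 ± 0.12 and -0.87 ± 0.09. Tbc1d7, the third subunit of the TSC complex, changed by -1.11 ± 0.12. Sesn1 fell and its relatives Sesn2 and Sesn3 rose, with -0.99 ± 0.15, 0.90 ± 0.16 and 0.94 ± 0.09. Tfe3 and Ulk1, a lysosomal transcription factor and an autophagy kinase that mTORC1 restrains, changed by 1.03 ± 0.09 and 1.12 ± 0.12. In the Myc network, 6 of 13 rose (46.2%, against 13.8% of all genes) and 3 fell (23.1%, near the 21.5% of all genes). Mxd1, an antagonist of Myc, led the rises, at 2.76 ± 0.12 (adjusted p = 2.07e-11).

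Ribosomal protein genes changed in few cases at 4 h, ribosome biogenesis genes about as often as all genes, and chaperones and translation factors rose more often. Of 55 genes of ribosome biogenesis, 7 were called higher (12.7%, near the 13.8% of all genes) and 11 lower (20%, near the 21.5%), and the median was -0.05. Nop56, a component of box C/D particles, was at the top with 0.87 ± 0.11, and Utp20 at the bottom with -0.90 ± 0.10. Of 33 cytosolic ribosomal protein genes, Rpl14 (-0.52 ± 0.12) was the single one called (3.03% lower, against 21.5% of all genes), and the median was -0.02. Translation initiation factors were higher for 9 of 26 genes (34.6%, against 13.8% of all genes) and lower for 3 (11.5%, against 21.5%). Eif5 led the rises, at 1.21 ± 0.08 (adjusted p = 3.97e-09). Chaperone genes were higher for 13 of 28 (46.4%, against 13.8% of all genes) and lower for 1 (3.57%, against 21.5%). Stip1 changed by 1.13 ± 0.15, Hsp90aa1 by 1.01 ± 0.15 and Hspa5, the chaperone of the endoplasmic reticulum, by 0.74 ± 0.11. Among 36 proteasome genes, 8 rose (22.2%, against 13.8% of all genes) and 6 fell (16.7%, against 21.5%). Psmd1 (0.81 ± 0.10) was first, and the immunoproteasome gene Psmb10 (-0.74 ± 0.12) lowest. The proteasome median was 0.07, and in wild-type cells it was 0.29, but 0 members passed the test of the difference between the genotypes.

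Oxidative phosphorylation subunits fell in 23 of 36 cases (63.9%, against 21.5% of all genes), by small amounts. Their median was -0.35 (-0.22 in wild-type cells), and 0 members passed the test of the difference between the genotypes. Ndufb3, of complex I, had 7.85, 7.93 and 8.23 on the stimulated arrays, against 9.39, 9.31 and 9.25 on the unstimulated arrays and was the 1 subunit at least 2-fold lower, at -1.32 ± 0.12 (adjusted p = 9.76e-08). Other complex I genes fell by less, such as Ndufa9 (-0.78 ± 0.10) and Ndufv1 (-0.65 ± 0.13). Glycolysis genes were lower for 11 of 26 (42.3%, against 21.5% of all genes) and higher for 5 (19.2%, against 13.8%). Hk2, a hexokinase, changed by 0.95 ± 0.21, Slc16a1, a lactate transporter, by 1.34 ± 0.17 (adjusted p = 7.22e-06), and Hif1a, a driver of glycolytic genes, by 0.86 ± 0.10. Pdk1, which diverts pyruvate from mitochondria, changed by -2.32 ± 0.10 (adjusted p = 5.3e-11), Aldoc by -1.77 ± 0.15 and the glucose transporter gene Slc2a3 by -1.15 ± 0.10. Slc2a1 (0.03), the main glucose transporter gene of activated T cells, was not called.

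Sterol and fatty acid synthesis genes fell in 16 of 31 cases (51.6%, against 21.5% of all genes) and rose in 7 (22.6%, against 13.8%). Their median was -0.46 (-0.13 in wild-type cells). Gene by gene, however, the median difference between the genotypes was -0.02, and 0 members passed the test of the difference. Dhcr7, of the last steps of cholesterol synthesis, changed by -1.66 ± 0.10 (adjusted p = 1.43e-09), Lss by -1.42 ± 0.18, Fdft1 by -1.19 ± 0.13, Sqle by -1.004 ± 0.14, and Srebf2, their transcriptional activator, by -0.80 ± 0.12. Elovl6, which lengthens fatty acids, changed by -1.62 ± 0.17, against 0.51 ± 0.12 for Elovl5. In the amino acid list, 10 of 38 rose (26.3%, against 13.8% of all genes) and 14 fell (36.8%, against 21.5%). Transporter genes were among the rises, with 1.07 ± 0.14 for Slc38a2, 0.69 ± 0.14 for Slc7a1 and 0.54 ± 0.13 for Slc7a5. Enzymes of serine and one-carbon metabolism were among the falls, with -0.81 ± 0.12 for Phgdh, -0.996 ± 0.14 for Psph and -1.44 ± 0.12 for Mthfd1. Lysosome genes were lower for 16 of 33 (48.5%, against 21.5% of all genes) and higher for 5 (15.2%, near the 13.8% of all genes). The lysosomal glucosidase gene Gaa changed by -1.89 ± 0.12 (adjusted p = 1.8e-09) and the protease gene Ctsd by -1.18 ± 0.10.

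DNA replication genes were called about as often as all genes (35.3%), with 5 higher and 9 lower of 38. Mitosis genes were higher for 8 of 36 (22.2%, against 13.8% of all genes) and lower for 2 (5.56%, against 21.5%). Mki67 (-0.13), a marker of cycling cells, and Mcm3 (-0.19), of the replicative helicase, were not called. Of 27 genes of G1 control, 4 rose (14.8%, near the 13.8% of all genes) and 8 fell (29.6%, against 21.5%). Cdkn1a, an inhibitor of cyclin-dependent kinases, had 6.73, 6.14 and 5.78 on the stimulated arrays, against 3.62, 3.37 and 3.73 on the unstimulated arrays. The groups were apart, and the change was 2.64 ± 0.23 (adjusted p = 9.36e-08). Cdkn2d, another inhibitor, changed by -2.20 ± 0.18 (adjusted p = 2.55e-08), E2f2, a repressor of entry into the cycle in T cells, by -2.84 ± 0.16 (adjusted p = 7.26e-10), and Cdk4 and Ccnd3 by -1.14 ± 0.11 and -0.99 ± 0.20. Ccnd2 (-0.05) and Cdk6 (-0.04) were not called. Cks2 (2.59 ± 0.15) and Ckap2 (2.18 ± 0.20) rose among mitosis genes, and Kif23, needed for cytokinesis, fell (-3.25 ± 0.26).

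Genes of the BCL-2 family and death receptors, a list that holds both survival and death genes, changed at the level of individual members. Of 30 measured, 15 were called higher (50%, against 13.8% of all genes) and 5 lower (16.7%, against 21.5%). Bcl2, the survival gene of resting T cells, had 6.90, 7.003 and 6.60 on the stimulated arrays, against 9.26, 8.95 and 8.64 on the unstimulated arrays, with no overlap and a change of -2.11 ± 0.14 (adjusted p = 4.6e-09). Bcl2a1a, an inducible relative, changed by 1.97 ± 0.15, Bcl2l1, which encodes Bcl-xL, by 0.77 ± 0.18, and the death-promoting Bcl2l11, which encodes Bim, by 1.95 ± 0.11 (adjusted p = 7.04e-10). Probes for Bcl2a1a may also read its near-identical gene copies. Fasl, the ligand of a death receptor, changed by -0.80 ± 0.17, and Casp8, a caspase that such receptors activate, by -0.66 ± 0.12.

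Effector and memory genes were lower for 16 of 31 (51.6%, against 21.5% of all genes) and higher for 3 (9.68%, against 13.8%). Their median was -0.59 (-0.65 in wild-type cells). Klrd1, a lectin-like receptor gene of cytotoxic cells, changed by -2.97 ± 0.11 (adjusted p = 4.62e-12), Prf1, which encodes perforin, by -2.16 ± 0.23, Nkg7 by -1.90 ± 0.23 and S100a6 by -1.33 ± 0.24. The other probe set of Prf1 changed by 0.19. Prf1 is also in the natural killer marker list, whose summed signal was lower, as given above. The calcium-binding S100a4, S100a10 and S100a11 changed by -0.91 ± 0.16, -0.89 ± 0.18 and -1.04 ± 0.10. Bcl6, the follicular helper factor, was higher, at 1.96 ± 0.10.

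Interferon response genes rose in 16 of 30 cases (53.3%, against 13.8% of all genes) and fell in 2 (6.67%, against 21.5%). Gbp2, a guanylate-binding protein induced by interferon gamma, had 12.76, 12.58 and 12.97 on the stimulated arrays, against 9.42, 10.58 and 9.21 on the unstimulated arrays. The stimulated arrays lay together and apart from the others, and the change was 3.03 ± 0.26 (adjusted p = 6.98e-08). Iigp1 changed by 2.81 ± 0.26, Irgm1 by 2.35 ± 0.19, Irf1 by 1.78 ± 0.14 and Stat2 by 1.78 ± 0.19. Ifit1, typical of type I interferon, had 10.18, 9.57 and 9.76 on the stimulated arrays, against 7.92, 8.12 and 7.71 on the unstimulated arrays, a change of 1.92 ± 0.37 (adjusted p = 0.000499). Rsad2 changed by 1.53 ± 0.39, whereas Mx1 (0.60, adjusted p = 0.328) and Oas2 (-0.14) were not called. The median over the list was 0.65 in Tsc1-deficient cells and -0.06 in wild-type cells, but 1 of the 30 members, Usp18, passed the test of the difference.

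**Figure D4:**
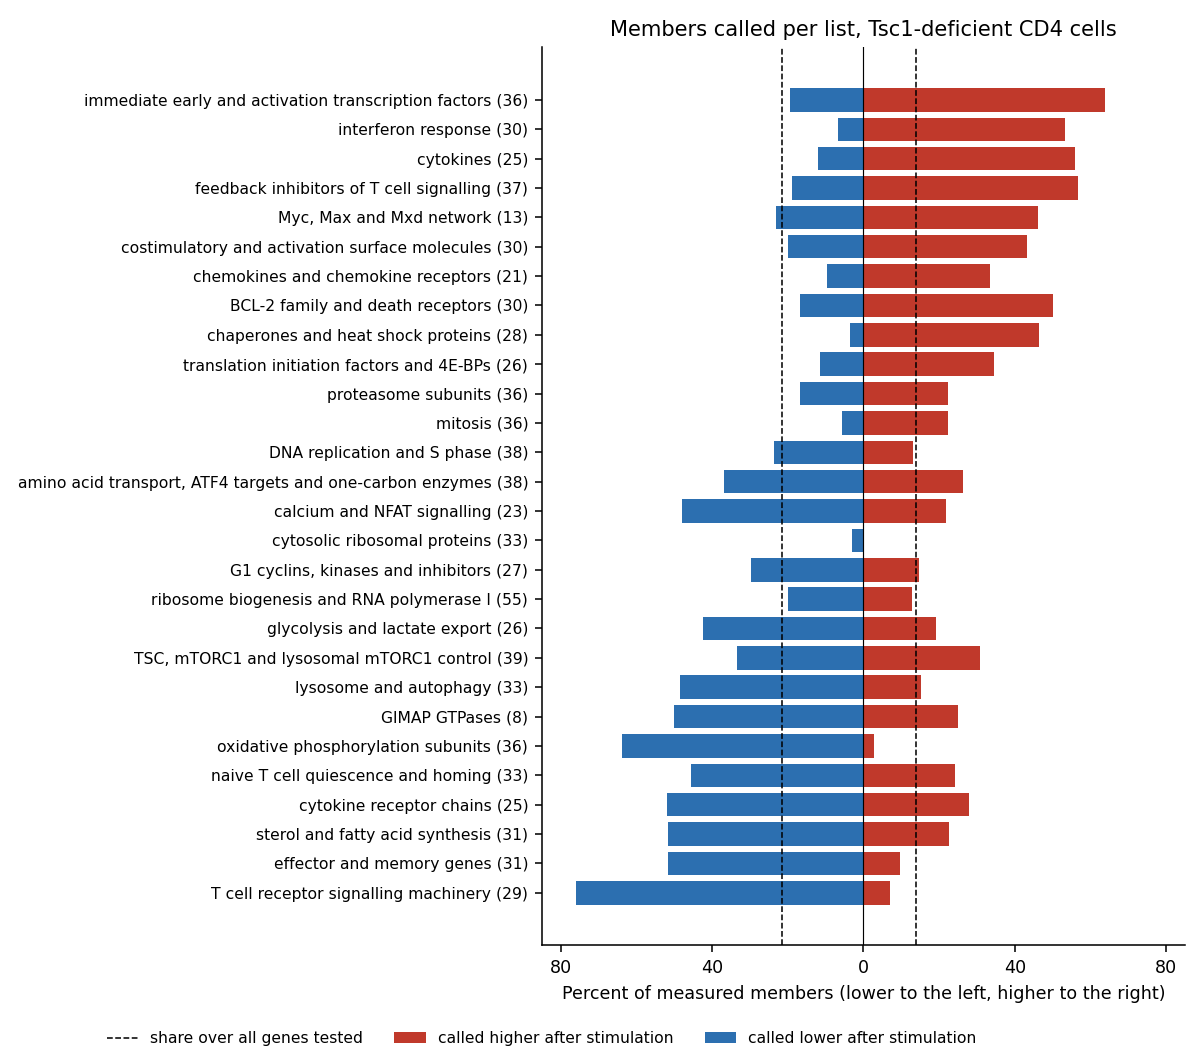
Percent of the measured members of 28 gene lists called higher (red, to the right) and lower (blue, to the left) after stimulation of Tsc1-deficient CD4 cells, with the number measured in brackets and lists ordered by median change. Dashed lines are the shares over all genes, 13.8% higher and 21.5% lower. The lists were chosen with earlier results of these data known, and the shares were not tested. The share of rises is widest for activation transcription factors, 63.9%, and the share of falls for the antigen receptor machinery, 75.9%.

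The response of wild-type CD4 cells, measured on 6 other arrays, was compared with this one. Of the 569 genes at least 2-fold higher in Tsc1-deficient cells, 543 (95.4%) were also called higher in wild-type cells, and of the 1307 at least 2-fold lower, 1270 (97.2%) were also called lower. Of the 6041 genes called in Tsc1-deficient and the 5451 called in wild-type cells, 4513 were called in the same direction in both and 14 in opposite directions. Across all genes, which are not independent replicates, the changes in the 2 genotypes had a Pearson r of 0.904. The responses share no arrays.

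The test of the difference between the responses called 206 genes (1.2%), 93 with a change that was higher in Tsc1-deficient than in wild-type cells (0.544%) and 113 with one that was lower (0.661%). Of these 113, 49 were called higher in unstimulated Tsc1-deficient than in unstimulated wild-type cells, 2 lower, and 62 were not called there. Among the 49, 36 were not called between the genotypes after stimulation. Leaving out unstimulated Tsc1-deficient replicate 2 left 103 calls, unstimulated Tsc1-deficient replicate 1 115, unstimulated wild-type replicate 1 115, unstimulated wild-type replicate 2 109 and stimulated wild-type replicate 2 112. Without stimulated Tsc1-deficient replicate 1, the array with the high Gapdh difference, the test called 199 genes, and without that array and the CD8 array with the next highest Gapdh difference it called 325.

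Ramp3 rose more in Tsc1-deficient than in wild-type cells. Its signal averaged 9.26 ± 0.67 in stimulated and 5.07 ± 0.16 in unstimulated Tsc1-deficient cells, and 8.35 ± 0.23 in stimulated and 5.998 ± 0.04 in unstimulated wild-type cells (SD, n = 3 each). The difference of the changes was 1.85 ± 0.34 (adjusted p = 0.0127). Plagl1 changed by 5.48 ± 0.21 in Tsc1-deficient and 3.77 ± 0.21 in wild-type cells, a difference of 1.71 ± 0.30 (adjusted p = 0.00831), but with the 2 probe sets of the gene averaged the difference was 0.86 (adjusted p = 0.0726). Il4 changed by 2.39 ± 0.18 and 0.80 ± 0.18, a difference of 1.60 ± 0.26 (adjusted p = 0.00583), and Ifng by 3.34 ± 0.23 and 1.76 ± 0.23, a difference of 1.58 ± 0.32 (adjusted p = 0.0239). The call of Ifng was lost without unstimulated wild-type replicate 1, 2 or 3, stimulated wild-type replicate 2 or unstimulated Tsc1-deficient replicate 1 or 2 (adjusted p = 0.0533 to 0.0748). The difference of Il5, a further T helper 2 cytokine, was 0.88 ± 0.16 and was called. Its mean in stimulated Tsc1-deficient cells was 3.38, near the median of the table. Usp18, which removes the ubiquitin-like protein Isg15 from its targets, changed by 0.92 ± 0.30 in Tsc1-deficient and -0.97 ± 0.30 in wild-type cells, a difference of 1.89 ± 0.42 (adjusted p = 0.0383). This call was lost without any single one of 8 of the 12 CD4 arrays (adjusted p = 0.0687 to 0.116), and that of its rise in Tsc1-deficient cells without stimulated replicate 1 or unstimulated replicate 1 or 3 (adjusted p = 0.0567 to 0.132). Not every positive difference was a larger rise. Lrrc75b, with a difference of 1.88 ± 0.21, averaged 2.29 ± 0.11 in stimulated and 2.31 ± 0.12 in unstimulated Tsc1-deficient cells, both below the median of the table, and 2.34 ± 0.08 in stimulated and 4.24 ± 0.35 in unstimulated wild-type cells. A530021J07Rik (1.67 ± 0.27) fell in both genotypes, by 1.97 in Tsc1-deficient and 3.64 in wild-type cells. The others among the 8 highest differences were C9orf72 (1.62 ± 0.32) and Serpinc1 (1.62 ± 0.21), the gene of antithrombin. For C9orf72 the call was lost without unstimulated wild-type replicate 3 (adjusted p = 0.0517) or unstimulated Tsc1-deficient replicate 2 (adjusted p = 0.0515).

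Irf4, the largest rise of the list of early activation transcription factors, rose less in Tsc1-deficient than in wild-type cells. It averaged 10.23 ± 0.17 in stimulated and 5.14 ± 0.27 in unstimulated Tsc1-deficient cells, and 10.70 ± 0.10 in stimulated and 4.19 ± 0.08 in unstimulated wild-type cells (SD, n = 3 each), a difference of -1.43 ± 0.19 (adjusted p = 0.00137). The stimulated means of the genotypes were thus closer than the unstimulated ones. Ccr9 fell by more, with changes of -4.85 ± 0.19 in Tsc1-deficient and -2.94 ± 0.19 in wild-type cells, a difference of -1.91 ± 0.27 (adjusted p = 0.00193). It averaged 5.76 in stimulated and 10.61 in unstimulated Tsc1-deficient cells, and 3.72 in stimulated and 6.665 in unstimulated wild-type cells. The wild-type fall thus began lower and ended near the median of the table, 3.36. Cd3g changed by -2.22 ± 0.08 and -1.37 ± 0.08, a difference of -0.84 ± 0.12 (adjusted p = 0.00193), and Ptpn6, Cd2, Lcp2 and Fyn were the other 4 receptor machinery genes with a lower change, at -1.15 ± 0.18, -0.93 ± 0.19, -0.66 ± 0.13 and -0.56 ± 0.12. The calls of Cd2, Lcp2 and Fyn were each lost when some single arrays were left out (adjusted p = 0.0502 to 0.0992). The 8 lowest differences were led by Fam221a (-2.34 ± 0.23) and by Hpgds (-2.31 ± 0.26), which encodes a prostaglandin D synthase. Hpgds averaged 3.18 ± 0.12 in stimulated and 6.09 ± 0.13 in unstimulated Tsc1-deficient cells, and 2.49 ± 0.15 in stimulated and 3.08 ± 0.18 in unstimulated wild-type cells. Patl2 (-2.15 ± 0.30), Adipoq (-2.14 ± 0.22), 4933430I17Rik (-2.09 ± 0.24), Trpm1 (-1.98 ± 0.22) and Kif23 (-1.87 ± 0.36) made up the rest. Before stimulation, Fam221a averaged 8.49 in Tsc1-deficient and 4.80 in wild-type cells, and Patl2 6.06 and 3.66. Adipoq averaged 4.72 and 2.44 and 4933430I17Rik 4.27 and 2.10, so the wild-type signal of both was below the median of the table before stimulation. For Kif23 the call was lost without unstimulated wild-type replicate 2 (adjusted p = 0.0526) or unstimulated Tsc1-deficient replicate 1 (adjusted p = 0.0506).

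**Figure D5:**
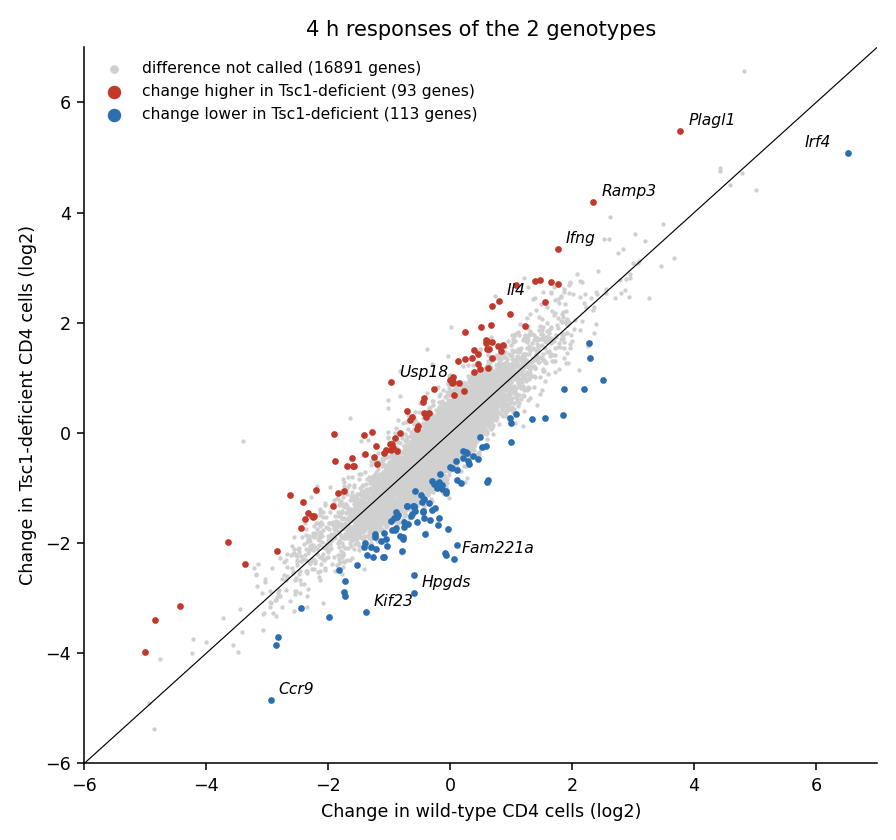
Change after 4 h of stimulation in Tsc1-deficient CD4 cells (vertical axis, log2) against that in wild-type CD4 cells (horizontal axis, log2), 1 point per gene, with the line of equal change. Red points are the 93 genes whose change was called higher in Tsc1-deficient cells and blue points the 113 called lower. Most points lie along the line, Plagl1, Ramp3 and Ifng above it and Irf4, Hpgds and Ccr9 below it.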

How the data were processed

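Labelled RNA was measured by the authors on 1-colour Affymetrix arrays, and 6 of the 16 arrays enter the stimulation contrast. The deposited log2 values were made by the authors with RMA in Partek 6.5, per the submitters' processing notes, and used as deposited. The series matrix was read, raw scans were not analysed here, and every column was matched to a labelled sample. Of 45141 probe sets, 104 were controls, 28898 named 1 gene in the platform's annotation, an old release, 551 named several and 15588 none. For each of 17097 genes the single-gene probe set of highest mean over all arrays was kept, and 7180 genes had more than 1. The symbols of 28689 probe sets were looked up by Entrez identifier in RefSeq, and 0 changed. No source used here gives a genome build for the probes.

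All 16 arrays entered 1 limma 3.58.1 model in R 4.3.3 that fits group means and moderates the variance (10 residual degrees of freedom), with p-values adjusted by Benjamini-Hochberg over all genes and calls at 0.05. The difference of responses was the change in Tsc1-deficient minus that in wild-type cells. Precision is limited by how many arrays there were. The pipeline was tested on simulated data. Members and gene lists were chosen with earlier results of these data known. Of 965 entries in the 28 pathway lists 853 were measured, and of 96 entries in the 11 marker lists 80. The naming rule took the 15 highest and 15 lowest non-overlapping changes above the table median of 3.36, the 8 highest and 8 lowest differences, Tsc1, and up to 6 called members of each list by absolute change in each direction, with uncalled or opposing members where 5 or fewer. All transcription factor, cytokine and quiescence members could be named, and 75 further genes were named for their role after their values were seen. Not every gene so taken is printed. Of 103 named and called genes with more than 1 probe set, all probe sets moved one way in 90. Figures were drawn with matplotlib 3.10.9.

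Alternatives were to average a gene's probe sets, to test every probe set, to leave out dim genes, to scale by quantiles or by medians, a robust prior with an intensity trend, array weights, the compared groups alone, the Gapdh difference as covariate, the 2 arrays of highest Gapdh difference left out, a replicate block, each array left out in turn, an adjusted p of 0.01 and a test against a 2-fold change.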

Additional observations from a re-analysis of the deposited data

Results flagged for a closer look

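A test of the difference between the 4 h responses, in limma over all genes, singled out 44 of the 261 named genes. Over all genes, it called 1.2%. The naming rule took the 8 highest and 8 lowest called differences, so the share among named genes was partly set by the choice. The change in Tsc1-deficient CD4 cells was higher than in wild-type cells for 20 of the 44 and lower for 24. Groups of 3 arrays are too small for a test of outlying values. For 27 of the 44 the call was kept when each CD4 array was left out in turn, and for 17 it was lost without at least 1 array (adjusted p up to 0.138). The calls lost numbered 16 without unstimulated Tsc1-deficient replicate 2, 15 without stimulated wild-type replicate 2, 15 without unstimulated wild-type replicate 2, 14 without unstimulated Tsc1-deficient replicate 1, 14 without unstimulated wild-type replicate 1, 12 without unstimulated Tsc1-deficient replicate 3, 12 without unstimulated wild-type replicate 3, 10 without stimulated wild-type replicate 3, 8 without stimulated Tsc1-deficient replicate 2, 7 without stimulated Tsc1-deficient replicate 1, 7 without stimulated wild-type replicate 1 and 3 without stimulated Tsc1-deficient replicate 3.

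Among the higher changes that kept the call without each array, the differences were 1.88 for Lrrc75b, 1.85 for Ramp3, 1.71 for Plagl1, 1.67 for A530021J07Rik, 1.62 for Serpinc1, 1.60 for Il4, 1.50 for Tnfsf10, 1.43 for Ccdc69, 1.38 for Mxd1, 1.17 for Cish, 0.97 for Cd44 and 0.88 for Il5. With the probe sets of each gene averaged, the calls of Plagl1 (0.86, adjusted p = 0.0726), Ccdc69 (0.55, adjusted p = 0.0903) and Cd44 (0.57, adjusted p = 0.0726) were lost, so that 20 of the 44 calls depended on some setting. The genes just listed include the cytokine genes Il4, Il5 and Tnfsf10, the cytokine signal inhibitor Cish and Mxd1, an antagonist of Myc. Where the change itself was a fall, as for Tnfsf10, Ccdc69 and A530021J07Rik, a positive difference means a smaller fall in Tsc1-deficient cells. The higher changes whose call depended on single arrays were 1.89 for Usp18, 1.62 for C9orf72, 1.58 for Ifng, 1.27 for Igfbp4, 1.12 for Ccl1, 1.10 for Csf2, 1.03 for Slc16a5 and 0.72 for Bcl2l11.

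Among the lower changes that kept the call without each array, the differences were -2.34 for Fam221a, -2.31 for Hpgds, -2.15 for Patl2, -2.14 for Adipoq, -2.09 for 4933430I17Rik, -1.98 for Trpm1, -1.91 for Ccr9, -1.47 for Nab2, -1.43 for Irf4, -1.24 for Klrd1, -1.15 for Ptpn6, -0.998 for Pglyrp2, -0.90 for Acyp1, -0.87 for Cd27 and -0.84 for Cd3g. They include the transcription factor gene Irf4, the Egr corepressor gene Nab2, the receptor chain gene Cd3g, the phosphatase gene Ptpn6 and the costimulatory receptor gene Cd27. Some of them, such as Fam221a, Hpgds, Patl2 and Ccr9, started from a higher signal in unstimulated Tsc1-deficient than in unstimulated wild-type cells. The lower changes whose call depended on single arrays were -1.87 for Kif23, -0.93 for Cd2, -0.89 for S1pr1, -0.74 for Cd5, -0.68 for Nfatc1, -0.66 for Lcp2, -0.63 for Il16, -0.57 for Lamtor1 and -0.56 for Fyn.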

How the results depend on the processing

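The number of genes called for stimulation stayed between 5445 and 6389 under the alternatives at the same threshold, other than testing all 45037 probe sets, which called 13683 (6894 higher, 6789 lower), and 4210 (1884 higher, 2326 lower) at 2-fold. A threshold of adjusted p under 0.01 left 4926. A test against a 2-fold change left 848 (222 higher, 626 lower). Leaving out single arrays gave 5451 to 6070 calls (2065 to 2472 higher, 3386 to 3598 lower) and 1853 to 1951 at 2-fold (550 to 594 higher, 1303 to 1357 lower). The difference of responses was less stable. It had 351 (154 higher, 197 lower) calls with array weights, 325 (133 higher, 192 lower) without the 2 arrays of high Gapdh difference, and 103 to 287 with single arrays left out (46 to 146 higher, 57 to 141 lower). Adjacent array codes in the titles are not said to pair arrays, and deviations of such arrays correlated at 0.03 to 0.08, though each array but stimulated wild-type replicate 3 correlated best with its neighbour in code. With these codes as a replicate block, 5933 genes were called, 1876 at 2-fold and 143 (69 higher, 74 lower) for the difference. The causes were not tested. Of the named genes, 5 had a stimulation call that depended on an alternative: Cd247, Foxp3, Jun, Ptpn22 and Usp18. Scaling moved the median of all genes by less than 0.01. Array number and dim probes limit what small changes can show.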

Other observations

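Markers of other T cell states moved with stimulation. Of 8 measured genes linked with regulatory T cells, 5 were called higher (62.5%, against 13.8% of all genes) and 1 lower (12.5%, against 21.5%). Il2ra (2.37 ± 0.20), Ikzf4 (1.41 ± 0.14), Ctla4 (1.29 ± 0.33) and Ikzf2 (0.92 ± 0.19) rose and Nrp1 (-1.71 ± 0.22) fell. Foxp3, their defining transcription factor, changed by 0.49 ± 0.18 (adjusted p = 0.0424) with arrays that overlapped, and its call was lost without unstimulated replicate 1 or 2 or stimulated replicate 1 or 3 (adjusted p = 0.118 to 0.232). Activated conventional T cells also express Il2ra and Ctla4. Of 6 genes of immature thymocytes 3 were called lower (50%, against 21.5% of all genes). Dntt, which encodes terminal deoxynucleotidyl transferase, had 2.68, 3.32 and 3.45 on the stimulated arrays, against 5.22, 5.22 and 5.65 on the unstimulated arrays, a change of -2.21 ± 0.23 (adjusted p = 4.84e-07), and Cd1d1 changed by -1.69 ± 0.11. The recombinase genes Rag1 (0.06) and Rag2 (0.05) lay below the median of the table in both groups and were not called. Cd8b1 and Cd8a, chains of the CD8 coreceptor, changed by -1.54 ± 0.19 and -1.04 ± 0.21. Of the markers of other cells, C1qa, a complement gene of macrophages, changed by -2.46 ± 0.37, Tyrobp, an adaptor gene of natural killer and myeloid cells, by -2.25 ± 0.33, and Ms4a1, which encodes the B cell antigen CD20, by -1.38 ± 0.24.

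A few genes varied between arrays of 1 group more than between the groups. Hspa1b, an inducible heat shock protein, had 6.66, 6.82 and 5.63 on the stimulated arrays, against 3.42, 7.97 and 8.18 on the unstimulated arrays, so unstimulated replicate 1 stood alone at the bottom. S100a8, a neutrophil gene, had 7.42, 6.70 and 8.55 on the stimulated arrays, against 6.66, 6.14 and 8.53 on the unstimulated arrays. Hba-a1, a globin gene, had 8.20, 8.88 and 9.42 on the stimulated arrays, against 7.79, 8.67 and 9.87 on the unstimulated arrays. Both had their highest signal on replicate 3 of each group.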
